A study of Mus musculus with 6 samples.

Results

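Resident macrophages sit among the neurons and satellite glial cells of sympathetic ganglia, and the 10 genes described here are widely used as their markers: Csf1r, C1qa, C1qb, C1qc, Ctss, Tyrobp, Fcer1g, Cd68, Cd14 and Mrc1. The members were all probe sets of the deposited table whose platform annotation gave a single gene symbol and that symbol was one of the 10, which gave 14 of 45101 probe sets and 10 of 18193 genes named in the table. Csf1r and C1qb had 3 probe sets each and the other genes 1 each.

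The arrays came from stellate ganglia, which send sympathetic fibres to the heart, of male C57/Bl6 mice, a common inbred laboratory strain. Transverse aortic constriction (TAC) is a surgical narrowing of the aorta that makes the left ventricle pump against raised pressure, and sham animals had the operation without it. RNA from the pair of ganglia of 1 animal went onto 1 Affymetrix array, with 3 sham and 3 TAC arrays at 8 weeks after surgery, named here by the letter of their titles. The age of the animals is not given in the sources used here. No agent, transgene or deletion is named for either group.

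Macrophages depend on the receptor kinase CSF1R, which binds the growth factors CSF1 and IL-34. C1q, built from the chains C1QA, C1QB and C1QC, binds immune complexes, dying cells and synapses and starts the classical complement pathway, and macrophages and microglia are its main source in nervous tissue. TYROBP (also called DAP12) and the Fc receptor gamma chain FCER1G carry the signal of activating receptors to the kinase SYK, cathepsin S (Ctss) prepares class II molecules for peptide loading, and CD68, CD14 and the mannose receptor MRC1 serve in lysosomes, in sensing of bacterial lipopolysaccharide and in uptake of glycoproteins.

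Promoter sequence was examined because transcription of many myeloid genes depends on PU.1 (Spi1), whose sites centre on GAGGAA. Only promoters of full length in the RefSeq promoter table (assembly GRCm38.p6) were used. They covered 6 of the 10 genes, without C1qa, Csf1r, Tyrobp and Cd14. Of these 6, 5 carried GAGGAA on either strand within the 250 bases before the start of the gene. Of all 32851 full-length promoters of the table, 23.25% held it in a window of the same length. A match is a description of the letters and shows no binding. The promoters of the neighbouring C1q genes, of Ctss and of Mrc1 are shown because C1qb and C1qc encode chains of one protein, and because Ctss and Mrc1 are the pair whose levels ran most oppositely over the arrays. Capitals mark GAGGAA, or TTCCTC where the motif lies on the other strand, and each sequence runs 5′ to 3′ towards the gene's start.
C1qb: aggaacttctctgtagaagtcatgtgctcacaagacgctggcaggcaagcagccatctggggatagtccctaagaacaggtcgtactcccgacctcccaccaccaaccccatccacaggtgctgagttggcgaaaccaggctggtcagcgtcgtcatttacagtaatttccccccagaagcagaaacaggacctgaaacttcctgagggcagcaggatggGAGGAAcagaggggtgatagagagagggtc
C1qc: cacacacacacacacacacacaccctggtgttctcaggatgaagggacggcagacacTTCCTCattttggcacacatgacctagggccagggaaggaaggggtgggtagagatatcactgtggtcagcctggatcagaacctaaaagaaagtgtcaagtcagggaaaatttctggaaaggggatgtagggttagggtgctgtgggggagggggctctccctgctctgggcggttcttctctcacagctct
Ctss: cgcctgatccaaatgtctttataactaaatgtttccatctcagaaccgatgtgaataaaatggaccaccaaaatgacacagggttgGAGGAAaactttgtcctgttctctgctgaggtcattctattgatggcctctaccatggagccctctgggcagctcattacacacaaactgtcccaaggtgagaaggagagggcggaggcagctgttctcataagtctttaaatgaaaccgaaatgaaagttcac
Mrc1: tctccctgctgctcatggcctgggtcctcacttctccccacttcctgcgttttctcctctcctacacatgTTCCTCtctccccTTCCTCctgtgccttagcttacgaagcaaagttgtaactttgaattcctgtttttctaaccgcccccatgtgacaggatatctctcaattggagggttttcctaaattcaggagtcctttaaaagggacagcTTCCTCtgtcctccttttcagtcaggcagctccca
The C1qb window is chr4:136886201-136886450 on the minus strand, and its match begins 30 bases before the start. The C1qc window is chr4:136892915-136893164, also on the minus strand, with the reverse motif beginning 193 bases before the start. In the RefSeq gene table C1qb, C1qc and C1qa follow each other with no other gene between them. The Ctss window is chr3:95526536-95526785 on the plus strand, with its match 164 bases before the start. The Mrc1 window is chr2:14229164-14229413 on the plus strand and held 3 reverse matches, which begin 180, 167 and 35 bases before the start. Cd68 also held 1 match, and Fcer1g held none in this window.

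Values below are log2 of the deposited GCRMA intensity, and a probe set was tested where its mean over all arrays was at least 4, the floor under which it is called dim. Of the 14 probe sets 12 were tested, covering 8 of the 10 genes, and the single probe sets of Cd68 and Cd14 were dim. In bulk ganglia, fewer macrophages and less of a transcript per macrophage cannot be told apart. At an adjusted p under 0.05 the limma fit of all 17550 tested probe sets held 0 calls (0%), and 1594 had an unadjusted p under 0.05 (9.08%: 6.03% higher and 3.05% lower after TAC). The mean correlation of an array with the others was 0.984 to 0.990, lowest for TAC B.

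No difference in macrophage and C1q transcripts between sham and TAC ganglia was detected, and the largest estimate was 0.29 on the log2 scale, for Mrc1. None of the 12 tested probe sets passed, with limma adjusted p of 0.549 to 0.993 and 0 at an unadjusted p under 0.05, against the 9.08% of all tested probe sets. Means were lower after TAC for 10 probe sets and higher for 2, and every 95% interval held 0. Of all tested probe sets 43.9% had a lower mean. Several of the 10 measure the same gene, Csf1r or C1qb. By brightest probe set 6 of 8 genes were lower, beside 45.0% of all tested genes. The intervals reached from -0.69 to 0.60 over the 12 probe sets, with widths of 0.18 to 0.64 on either side of the estimate. Groups did not overlap for 2 of the 12, C1qc below and Mrc1 above sham, where 17.9% of all tested probe sets had groups that did not overlap. Taking the brightest probe set of each gene, the median log2 difference of TAC minus sham was -0.11 over the 8 genes above the floor and -0.07 over all 10, beside 0.02 over 9955 tested genes. The middle 50% of tested genes lay between -0.09 and 0.14.

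**Figure D1:**
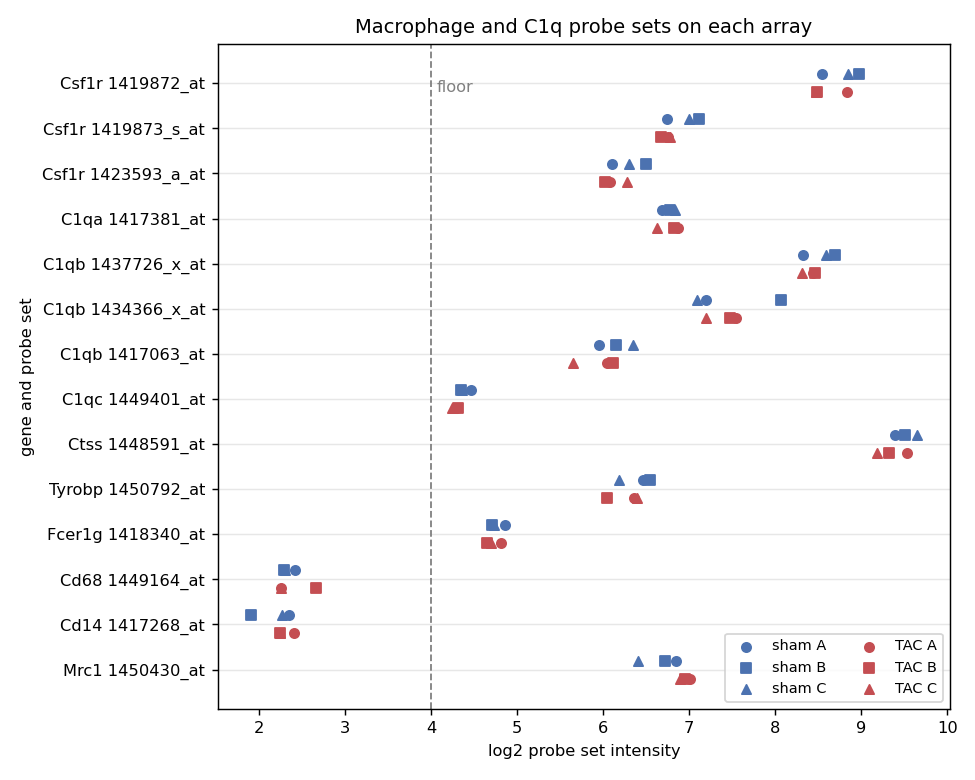
Log2 probe set intensity (x axis) of the 14 macrophage and C1q probe sets (y axis) on each of the 6 arrays, with sham in blue, TAC in red and a marker shape per title letter. The dashed line is the floor of 4. Cd68 and Cd14 lie below it on every array, and only C1qc and Mrc1 have groups that do not overlap.

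Csf1r, the receptor that keeps macrophages alive, was measured by 3 probe sets, all with a lower mean after TAC. The brightest, 1419872_at, measured 8.55, 8.97 and 8.85 on the sham arrays and 8.84, 8.48 and 8.48 on the TAC arrays, here and below in the order A, B, C. TAC A lay within the sham range, and TAC B and C lay below every sham array. Its difference was -0.19 (SE 0.15, 95% interval -0.56 to 0.18), or 0.877-fold, with limma adjusted p = 0.679. The probe set 1419873_s_at measured 6.75, 7.12 and 6.999 on the sham arrays and 6.75, 6.67 and 6.78 on the TAC arrays. Here the TAC arrays lay close together, and sham A fell among them. This gave -0.22 (SE 0.11, 95% interval -0.49 to 0.05; limma adjusted p = 0.569). The third, 1423593_a_at, was at -0.17 (SE 0.13) with overlapping groups. Sham B was the highest array for all 3 Csf1r probe sets, and without sham B the brightest was at -0.10 and 1419873_s_at at -0.14.

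C1qa encodes the A chain of C1q and had nearly equal means in the groups. Its values were 6.69, 6.78 and 6.84 on the sham arrays and 6.87, 6.83 and 6.63 on the TAC arrays. TAC C was the lowest array and TAC A the highest, so the TAC arrays spanned the whole sham range. The means were 6.77 ± 0.08 in sham and 6.77 ± 0.13 in TAC (SD, n = 3), and the interval of the difference, -0.23 to 0.23, corresponds to folds of 0.855 to 1.18.

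C1qb, the B chain, had lower TAC means on each of its 3 probe sets. The brightest, 1437726_x_at, measured 8.32, 8.70 and 8.59 on the sham arrays and 8.44, 8.46 and 8.31 on the TAC arrays. Sham A lay next to TAC C at the bottom of the range, and the difference was -0.13 (SE 0.12; limma adjusted p = 0.701). The probe set 1417063_at measured 5.95, 6.15 and 6.34 in sham and 6.04, 6.12 and 5.65 in TAC, with only TAC C below the sham arrays, and differed by -0.21 (SE 0.16). Without TAC C this was -0.07 and without sham C -0.11. The probe set 1434366_x_at had the widest spread among the members, because sham B at 8.06 stood apart from 7.20 and 7.09 on sham A and C. TAC arrays measured 7.54, 7.48 and 7.20 there. Its difference of -0.04 (SE 0.27) became 0.26 without sham B. Affymetrix gives the suffix _x to probe sets whose probes can also match other transcripts. That applies to 1434366_x_at and to 1437726_x_at, which represents C1qb wherever the brightest probe set is taken, but not to 1417063_at.

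C1qc, the C chain, lay just above the floor. Its values were 4.46, 4.34 and 4.36 on the sham arrays and 4.31, 4.31 and 4.24 on the TAC arrays. Every TAC array was below every sham array, by a gap smaller than the spread within sham. The means were 4.39 ± 0.06 and 4.29 ± 0.04 (SD, n = 3), a difference of -0.10 (SE 0.08, 95% interval -0.28 to 0.08) with limma adjusted p = 0.666. In the same direction, 87.0% of the dim probe sets of the table, all below the floor, had a lower mean on the TAC arrays, and 8.85% of tested probe sets were lower with groups that did not overlap. The part of this in the C1qc value was not tested.

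Ctss, the lysosomal protease that trims the invariant chain of class II molecules, measured 9.40, 9.51 and 9.65 on the sham arrays and 9.53, 9.33 and 9.19 on the TAC arrays. TAC A lay within the sham range, while TAC B and C lay below it. Its difference was -0.17 (SE 0.12, 95% interval -0.46 to 0.11), or 0.887-fold, with limma adjusted p = 0.644. Without TAC A it was -0.26 and without TAC C -0.09.

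Among the adaptor genes, Tyrobp measured 6.46, 6.54 and 6.19 on the sham arrays and 6.36, 6.04 and 6.40 on the TAC arrays. Only TAC B lay below the sham range, and the difference was -0.13 (SE 0.14; limma adjusted p = 0.760). Without TAC B it was -0.02, without sham B -0.06 and without sham C -0.23. Fcer1g measured 4.86, 4.71 and 4.73 in sham and 4.81, 4.66 and 4.70 in TAC, within 0.21 on the log2 scale over all 6 arrays. Its difference was -0.05 (SE 0.09, 95% interval -0.25 to 0.16), the narrowest interval among the members after that of C1qc.

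Mrc1, the mannose receptor of many tissue-resident macrophages, had the largest difference among the members, with a higher mean after TAC. Its values were 6.85, 6.71 and 6.41 on the sham arrays and 7.01, 6.95 and 6.89 on the TAC arrays. Each TAC array was above each sham array, though sham A and TAC C lay close together. The means were 6.66 ± 0.22 and 6.95 ± 0.06 (SD, n = 3), a difference of 0.29 (SE 0.12, 95% interval -0.01 to 0.59), or 1.23-fold. That had the smallest p among the members (limma unadjusted p = 0.0538, adjusted p = 0.549), and 9.02% of all tested probe sets were higher with groups that did not overlap. Sham C held the lowest value, and without it the difference was 0.17.

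The dim genes gave no usable level. Cd68 measured 2.42, 2.29 and 2.30 on the sham arrays and 2.25, 2.66 and 2.26 on the TAC arrays, with TAC B highest. Cd14 measured 2.35, 1.91 and 2.27 in sham and 2.41, 2.25 and 2.25 in TAC, with sham B lowest. Both groups of both genes lay under the floor of 4, so no fold is given.

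**Figure D2:**
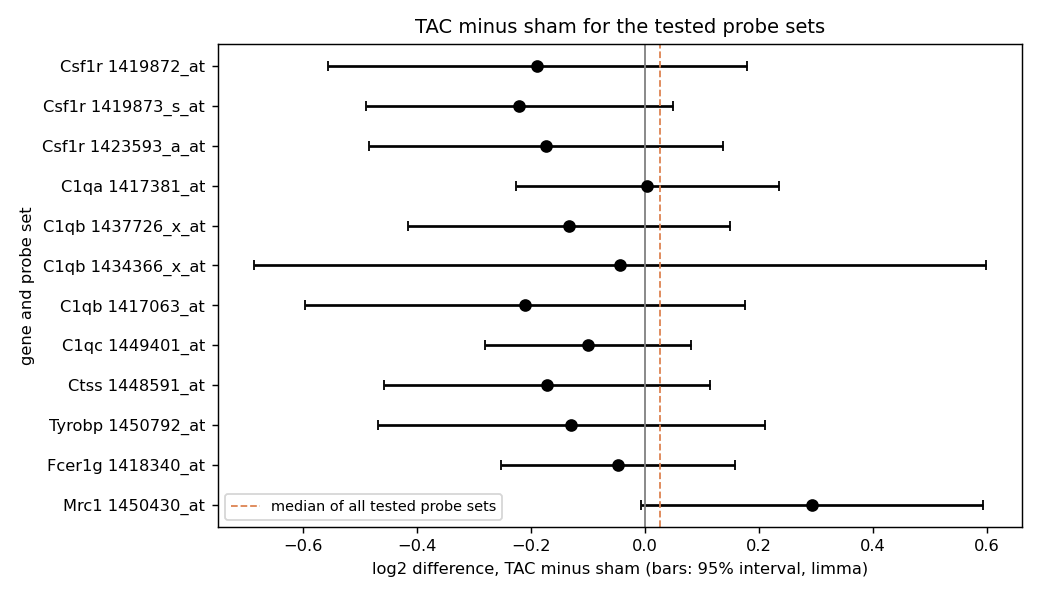
Log2 difference of TAC minus sham (x axis) for the 12 tested probe sets (y axis). Points are limma estimates, bars are 95% intervals and the dashed line is the median of all tested probe sets, 0.03. All 12 bars cross 0, with Mrc1 the furthest to the right at 0.29.

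The 8 genes above the floor did not follow one pattern over the arrays. Averaged after centring each gene on its own mean, they stood at 0.09 on sham B and 0.07 on TAC A, at 0.00 on sham A and C, at -0.07 on TAC B and at -0.09 on TAC C. This is 0.03 ± 0.05 in sham and -0.03 ± 0.09 in TAC (SD, n = 3). The difference between the groups, -0.06, was smaller in size than the SD among the TAC animals and larger than that among the sham animals. TAC C was the lowest array for 5 of the 8 genes and sham B the highest for 3. Of the 28 pairs of these genes, 19 had a positive Pearson r over the 6 arrays, with a median of 0.11. The highest were 0.84 for Csf1r with Ctss and 0.83 for Csf1r with C1qb, and the lowest was -0.62 for Ctss with Mrc1. These values describe 6 arrays that share 2 groups, and no p is attached to them. Residual spread within groups was ordinary for this table, with a median SD of 0.150 over the 8 genes and 0.142 over all tested genes.

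**Figure D3:**
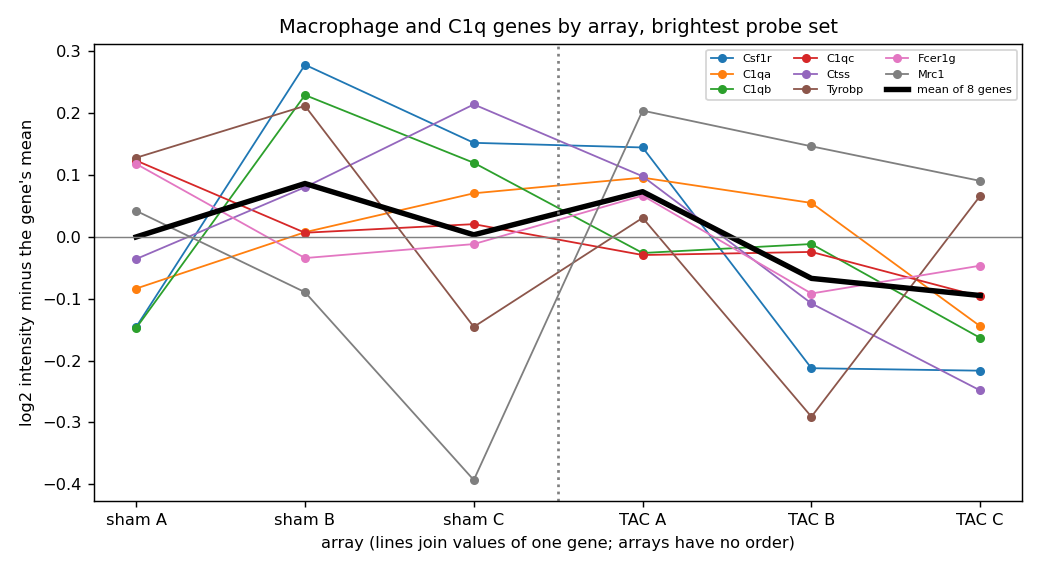
Log2 intensity minus the gene's mean (y axis) on each array (x axis) for the brightest probe set of the 8 genes above the floor, with their mean in black. Csf1r, C1qb and Ctss are lowest or near lowest on TAC C, Mrc1 lies above its mean on each TAC array, and the black line runs from 0.09 on sham B to -0.09 on TAC C.

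The 8 other genes most like this average were found by Pearson r over the 6 arrays among 9785 tested genes whose range was at least 0.5 of that of the average. They were Zfp27 at 0.98, Hspb11 at 0.98, Chd3 at 0.97, Tmem184c at 0.97, Sgce at 0.97, 9130019O22Rik at 0.97, Prpf8 at 0.96 and Purg at 0.96. Spearman's rho was 1 for Zfp27 and 0.89 for Purg. None of them is on the list of macrophage markers below. Among the macrophage markers of that list, r was highest for Cd53 at 0.82 and Stab1 at 0.76 and lowest for Adgre1 at -0.88. In all, 48 genes had an r above 0.9 and 75 an r below -0.9. Over only 6 arrays unrelated genes can reach such values too, and likeness was not tested.

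Other macrophage and microglia markers were compared with the label of the members. Of 38 on the array 22 were above the floor, among them Adgre1 (F4/80), Cx3cr1 (the fractalkine receptor), Laptm5, Mpeg1, Lyz2 and Cd163. The 16 dim ones included Aif1 (IBA1), Itgam (CD11b), Spi1 (PU.1), Trem2, P2ry12 and Lyve1. Limma called 0 of the 22, with 12 higher and 10 lower means, a median of 0.05 and 2 at an unadjusted p under 0.05, both higher. F13a1, a transglutaminase of resident macrophages, measured 6.79, 6.39 and 6.56 on the sham arrays and 7.16, 6.97 and 6.89 on the TAC arrays. All 3 TAC arrays were above the sham arrays, as for Mrc1, and the difference was 0.43 (SE 0.13; limma adjusted p = 0.516). Ptprc, the pan-leukocyte antigen CD45, measured 6.44, 5.25 and 5.16 in sham and 7.01, 6.16 and 6.57 in TAC. Sham A overlapped the TAC arrays, and the difference was 0.96 (SE 0.39; limma adjusted p = 0.546). Cx3cr1 measured 5.79, 5.70 and 5.72 in sham and 5.68, 5.36 and 5.47 in TAC, all TAC arrays below sham, with a difference of -0.23 (SE 0.10; limma adjusted p = 0.553). Adgre1 was at 0.07 and Lyz2 at -0.16.

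Of 14 genes of the CSF1 receptor axis, a list of ligands, related receptors, signalling proteins and transcription factors, 6 were measured, with 0 called and a median of -0.07. The ligand Csf1 measured 7.55, 7.32 and 7.32 on the sham arrays and 7.40, 6.91 and 7.16 on the TAC arrays, with TAC A inside the sham range. It differed by -0.24 (SE 0.14; limma adjusted p = 0.607), and its other tested probe set, 1448914_a_at, by 0.17. Il34 was dim. The cytokine receptor subunit Csf2rb was at 0.40 and the transcription factor Cebpa at -0.51, both near the floor. Cebpa measured 3.57, 4.28 and 4.98 in sham and 3.57, 4.16 and 3.57 in TAC. Its highest array in each group, sham C and TAC B, was also the highest for the fat lists below. The part of fat in its difference was not tested.

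Of the other complement genes and regulators 14 of 36 were above the floor, with 0 called, a median of 0.04 and 2 at an unadjusted p under 0.05. Calreticulin (Calr), an endoplasmic reticulum chaperone that binds C1q when it is exposed on dying cells, differed by -0.45 (SE 0.09; limma adjusted p = 0.512). Its other probe sets were at -0.31 and -0.33, and on all 3 the TAC arrays lay below the sham arrays. Cd93, a receptor of endothelial and myeloid cells once named for C1q binding, measured 4.995, 4.56 and 4.91 in sham and 5.21, 5.75 and 5.14 in TAC. This was 0.54 higher (SE 0.20; limma adjusted p = 0.542) on the only one of its 5 probe sets above the floor, and 0.35 higher without TAC B. Megf10, a glial phagocytic receptor for C1q-tagged material, was at -0.43 (SE 0.18), with TAC B lowest at 7.95. Of the proteases that act with C1q, C1s1 was at 0.33 (SE 0.25) and C1ra at 0.11 (SE 0.18), with overlapping groups. The inhibitor of both, Serping1, was at 0.03 (SE 0.17). The complement receptor genes C3ar1, C5ar1, Itgam and Itgb2 were dim.

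In the list of receptors that pair with or act beside Tyrobp and Fcer1g, and of proteins of the SYK pathway, 25 of 28 genes were dim, Trem2, Fcgr1, Syk and Clec7a among them. The 3 above the floor differed by 0.10 for the phospholipase Plcg2, 0.02 for the inhibitory Fc receptor Fcgr2b and -0.01 for the activating Fc receptor Fcgr3, with 0 called.

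Around Ctss, 20 of 23 genes of lysosomal proteolysis and class II presentation were measured, with 0 called and a median of -0.04. The class II genes had lower means after TAC. H2-Ab1 measured 7.64, 8.00 and 7.85 on the sham arrays and 7.45, 7.08 and 7.62 on the TAC arrays, all TAC arrays below sham, with a difference of -0.45 (SE 0.17; limma unadjusted p = 0.0329, adjusted p = 0.542). Cd74, the invariant chain that cathepsin S cleaves, measured 9.15, 9.26 and 9.32 in sham and 9.10, 8.14 and 8.82 in TAC. The groups did not overlap, TAC A lay next to sham A, and the difference was -0.56 (SE 0.24; limma adjusted p = 0.549). H2-Eb1 was at -0.39 (SE 0.21) and H2-Aa at -0.20 (SE 0.23). TAC B held the lowest value of all 4 genes. Without TAC B the differences were -0.30 for H2-Ab1, -0.29 for Cd74, -0.19 for H2-Eb1 and 0.06 for H2-Aa. The other tested H2-Aa probe sets were at -0.24, -0.28 and -0.48, the last near the floor. Leaving out TAC B put them at 0.01, -0.08 and -0.29. Those of H2-Ab1 were at -0.31 and -0.40, and at -0.22 and -0.27 without TAC B. Of the cathepsins, Ctsz was at -0.23 with groups that did not overlap and Ctsb at 0.18 with groups that did not overlap in the other direction. The other Ctsz probe sets were at -0.24, also without overlap, and at -0.18 with overlapping groups.

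In the CD14 and Toll-like receptor pathway 18 of 27 genes were dim, among them Tlr4, its partner Ly96, Tlr2 and the cytokines Il1b, Tnf and Il6. Of the 9 measured 0 were called, with a median of 0.10. The NF-kappa B subunit Rela was at 0.31 (SE 0.13), the chemokine Cxcl10 at -0.35 (SE 0.15) and the inhibitor Nfkbia at 0.16 (SE 0.14). The other Nfkbia probe sets disagreed, at 0.11, 0.36, 0.49 and -0.19, and only on the one at 0.49 did the groups not overlap (limma adjusted p = 0.542). Among scavenger and lectin receptors related to Mrc1, 5 of 20 were measured and 0 called, with a median of -0.13. Stab1 was at -0.49 (SE 0.24), Cd163 at 0.16 (SE 0.17) and Cd36 at -0.71 (SE 0.73). Cd36, also a fatty acid transporter of fat tissue, was highest at 7.14 on sham C and 6.34 on TAC B.

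**Figure D4:**
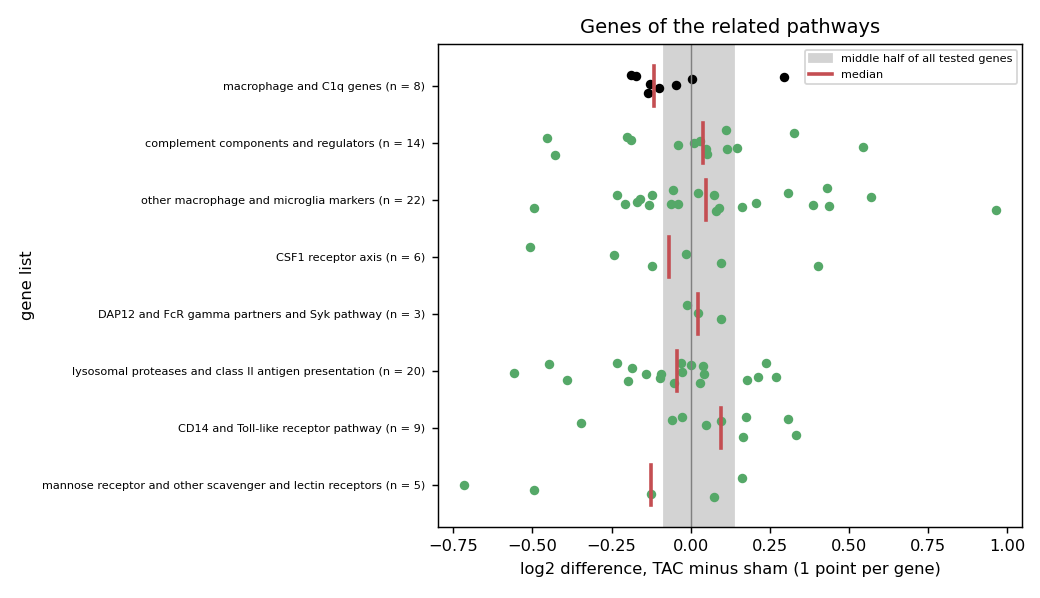
Log2 difference of TAC minus sham (x axis) for genes of the 7 related lists and the 8 macrophage and C1q genes (y axis), 1 point per gene at its brightest tested probe set. Red bars are medians and the grey band holds the middle 50% of all tested genes, -0.09 to 0.14. Ptprc at 0.96 and Cd36 at -0.71 are the outermost points.

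Markers of other cells were examined beside these values. Brown fat genes averaged 7.97 (log2) on sham C, 6.85 on TAC B and between 5.65 and 6.10 on the other arrays (5 of 7 genes above the floor). White fat genes were likewise highest on sham C and TAC B, at 11.25 and 10.72 against 8.88 to 9.47 (3 of 6 genes). Skeletal muscle genes averaged 7.08, 3.19 and 7.83 on the sham arrays and 5.651, 3.525 and 3.333 on the TAC arrays (5 of 9). All 5 had a lower mean after TAC, with 0 called and a median difference of -1.91. That median was -0.64 without sham C and TAC B, so leaving these arrays out did not level the muscle genes. The part of muscle in the macrophage and C1q values was not tested. Without sham C and TAC B the median difference of the macrophage and C1q genes was -0.10, against -0.11 with all arrays, and that of Mrc1 was 0.17. Red blood cell genes had means of 5.80, 5.50 and 5.24 in sham and 4.18, 5.22 and 5.22 in TAC (3 of 5). Markers of other blood cells were mostly dim, with 12 of 13 neutrophil and monocyte genes under the floor, S100a8 and S100a9 among them, and Ccr2 above it at a difference of 0.09. Likewise 7 of 8 dendritic cell genes, 9 of 10 T and NK cell genes with all Cd3 chains, 5 of 6 B cell genes and 6 of 7 mast cell genes were dim. The ones above the floor were Zbtb46 at 0.04, Thy1 at 0.11, which neurons also express, Ighm at -0.0025 and Kit at -0.09.

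Lists for the cells of the ganglion itself held 0 called genes each. Sympathetic neuron genes had a median difference of 0.02 (12 genes), endothelial genes 0.06 (5), mural cell genes 0.29 (5) and myelinating Schwann cell genes -0.07 (3). Of the neuron genes 4 of 12 had a limma unadjusted p under 0.05, beside 872 of all 9955 tested genes. All 4 (Th, Slc18a2, Npy and Snap25) were higher with groups that did not overlap, as were 9.02% of all tested probe sets. Over the whole neuron list 7 means were higher and 5 lower. At the same p there were 2 of 8 fibroblast genes, 1 higher and 1 lower, and 1 of 5 mural genes, which was lower. The satellite glia, endothelial and Schwann lists had 0. With each array centred on its median the neuron median was -0.02, and without sham A -0.01. Without TAC B the mural median was 0.02 and the Schwann median 0.06, and with no floor the mural median was 0.01. The brightest neuron genes were the noradrenaline transporter Slc6a2 at -0.10 and neuropeptide Y (Npy) at 0.77. Those of the other lists were Egfl7 at 0.06 and Vwf at 0.05 for endothelium, Rgs5 at 0.29 and Acta2 at 0.07 for mural cells, and Pmp22 at 0.10 and Mbp at -0.24 for Schwann cells. Satellite glia genes had a median of -0.15 (7), with mean levels of 9.98 to 10.13 on the sham arrays and 10.13, 9.79 and 9.99 on the TAC arrays, and their brightest genes Fabp7 and Apoe were at -0.39 and -0.21. The satellite glia median was 0.05 without TAC B. Fibroblast genes had a median of -0.19 (8), with 8.83 to 8.85 in sham and 9.09, 8.41 and 8.41 in TAC, and Dcn was at 0.26 and Col3a1 at -0.48. The fibroblast median was -0.54 without TAC A and -0.02 without TAC B. On TAC B and C, where the average of the macrophage and C1q genes was lowest, the fibroblast mean was lowest too, and the part of either in the other was not tested.

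**Figure D5:**
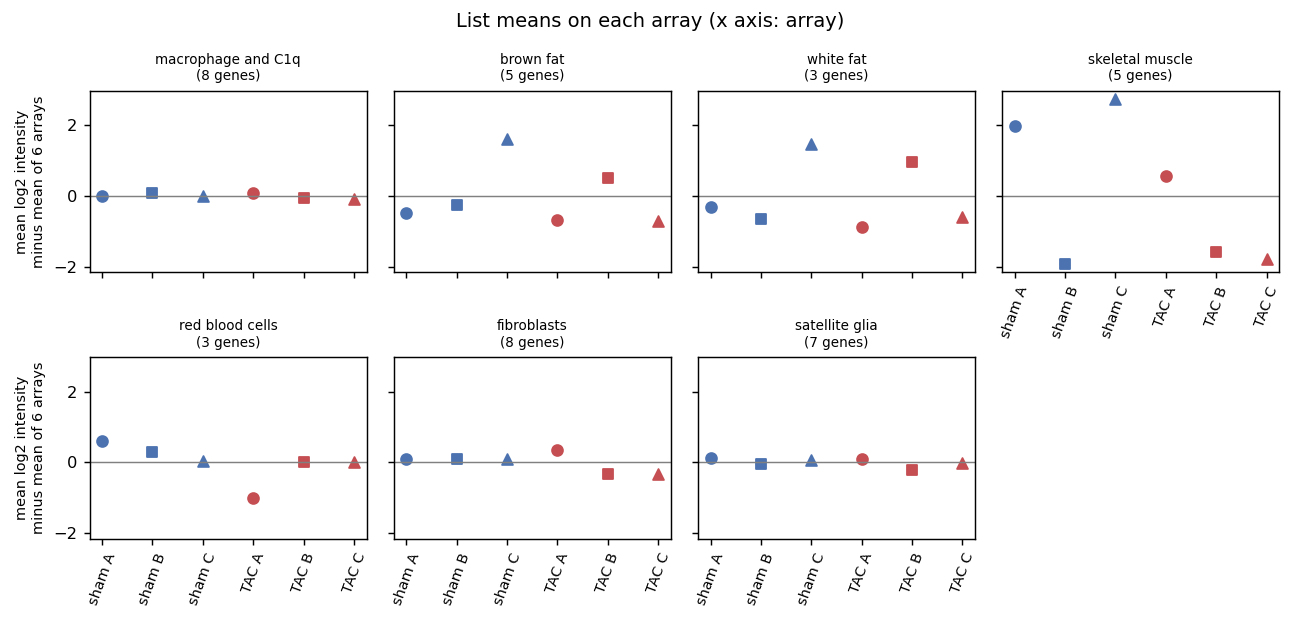
Mean log2 intensity of each marker list minus its mean over the 6 arrays (y axis) by array (x axis), sham in blue and TAC in red. The fat lists are high on sham C and TAC B and the muscle list differs most between arrays, while the macrophage and C1q genes run from 0.09 on sham B to -0.09 on TAC C.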

How the data were processed

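Intensities were measured on Affymetrix mouse genome arrays. The authors deposited linear intensities, 1 per probe set. Per the submitters' processing notes the tool was GCRMA, which corrects background by probe sequence and normalizes between arrays. Which version was run is not given in the sources used here. GCRMA compresses values near background. Here they were log2-transformed with no pseudocount. Symbols came from GEO's platform annotation, where 34958 probe sets had 1 symbol, 932 several and 9211 none. After 64 controls and 27487 dim probe sets (mean log2 under 4) were left out, 17550 were tested with limma 3.58.1 in R 4.3.3 (lmFit, eBayes, two-sided, Benjamini-Hochberg, threshold 0.05). Intervals are limma's 95% intervals. No pair of arrays shared more than 8 identical values. The number of arrays limits the precision, and an exact permutation test of 3 against 3 cannot give a p below 0.1.

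The members and lists were chosen with earlier results of these data known. Named were all member probe sets, the 8 genes most like their average, from each pathway list the 3 genes of smallest p and a set of well-known members, and the brightest genes of each list of ganglion cells; further list genes were chosen after their values were seen. A gene was represented by its brightest tested probe set, and members were left out of the lists. Tested on simulated data for TAC against sham (17550 probe sets, 10 simulations), the fit called 35.0% of changes of 0.58, 85.8% of changes of 1 and 98.8% of changes of 2 on the log2 scale. Each simulation held 200 planted changes in independent normal noise, and 7.7 false calls were made per simulation. Many planted changes make an adjusted p under 0.05 easier to reach. These shares therefore do not carry over to the real arrays, where 0 probe sets were called. Alternatives covered the floor, normalization, a pseudocount of 16, the variance model, array weights, several probe sets per gene, the title letter as a block and arrays left out. Promoters of full length were searched in RefSeq's table of GRCm38.p6.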

Additional observations from a re-analysis of the deposited data

How the results depend on the processing

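The number of member probe sets called was 0 under each of the 17 alternatives, and the median difference of the member genes kept its sign, from -0.16 with each array centred on its median to -0.0664 without sham B. Over all probe sets the number called was 0 except with 1 array left out, where it ranged from 0 to 1: Mir670hg was called without TAC B and Sst without TAC C. With the title letter as a replicate block, 0 probe sets were called and Mrc1 had an adjusted p of 0.602. The labels state no pairing of sham and TAC animals by letter. Deviations from the group means correlated at 0.084 for A, -0.0031 for B and -0.166 for C. Such correlations cannot show whether animals were paired. At an unadjusted p under 0.05 there was 1 member, Mrc1, with the block, with array weights and with a floor of 6, and there were 3 without sham A (1419873_s_at of Csf1r, 1437726_x_at of C1qb and Mrc1). Mrc1 stayed above 0 throughout, from 0.171 without sham C to 0.388 without sham A.

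Some signs changed. C1qa was at -0.0521 after quantile normalization, -0.0418 with each array centred on its median, -0.0652 with array weights and -0.0429 to 0.0771 with 1 array left out. With array weights 1434366_x_at of C1qb was at 0.0326 and Tyrobp, -0.129 in the fit of all arrays, at 0.0171; the former ranged from -0.225 to 0.263 with 1 array left out. The cause was not tested. Of the dim genes, Cd14 turned from 0.124 to -0.0104 without sham B and Cd68 from 0.0524 to -0.0828 without TAC B. The median of the other macrophage markers was -0.0556 without TAC A. Medians of further lists also crossed 0 over the alternatives. The complement median ranged from -0.0386 to 0.0796 and that of the Toll-like receptor pathway from -0.0317 to 0.170. The median of the scavenger and lectin receptors ranged from -0.299 to 0.06, and that of the SYK pathway list from -0.0553 to 0.162. Cd68 and Cd14 lay under the floor of 4 and entered the test only with no filter.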
